A study of Mus musculus with 4 samples.

Results

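The genes described here encode the aminoacyl-tRNA synthetases of the cytosol and the translation initiation factors of the mouse. The rule of choice used no measured value, but it was set with earlier results of these data known. By that rule members were taken by symbol from Affymetrix probe sets that carry exactly 1 gene symbol, and the eIF2alpha kinases were kept apart. This gave 56 of the 12393 genes named on the array, of which 18 were synthetases and 38 initiation factors, and the brightest probe set stood for each gene. A signal of 33.3 was set as the floor under which values have no order, and 56 of 56 members lay above it on at least 1 array, 16 synthetases and 38 initiation factors on all 4. The factor Eif4a3, the paired genes Eif3j1 and Eif3j2, and a further probe set of Eif1a were left out because their 5 probe sets carry several symbols. Dars, Mars, Eif2a, Eif2s1, Eif2b3, Eif3g and Eif4g1 are not analysed here. By its class name the second group also holds Eif5a, which acts chiefly in elongation, Eif6, which acts in ribosome maturation, and the eIF4E-binding proteins, which inhibit initiation.

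Messenger RNA was measured in dendritic cells labelled as CD11c-positive and as lacking interleukin 10, a genotype common to all 4 samples. The cells spent 6 h with SEA and LPS together (SEA/LPS), with LPS, with SEA, or in MEDIA alone, and each condition was measured on 1 array. LPS is the lipopolysaccharide of Gram-negative bacteria, and the labels do not spell out SEA. Neither the doses, the source tissue nor the number of animals or cultures is stated. With 1 array per condition there is no replicate, so no test was possible, and differences are given by size only as log2 of the signal ratio. A gene is counted as higher or lower from a 2-fold difference onward, and the counts are to be read against the same share among the 9473 genes measured.

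An aminoacyl-tRNA synthetase joins an amino acid to its tRNA, and each amino acid has its own enzyme. Several of these enzymes sit in a large multi-synthetase complex held together by scaffold proteins, while the rest work free in the cytosol. Initiation begins when eIF2 brings the initiator tRNA to the small ribosomal subunit, with eIF1, eIF1A, eIF3 and eIF5 in attendance, and eIF2B recharges eIF2 with GTP. The cap-binding protein eIF4E, the helicase eIF4A and the scaffold eIF4G then load the mRNA, and the 4E-binding proteins hold eIF4E back when mTOR is inactive. Synthetase genes are known targets of ATF4, the transcription factor of the amino acid response, which binds together with C/EBP proteins.

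Because several synthetase genes had lower signal with LPS, their promoters were searched for the core of that amino acid response element, TGATGNAA, on both strands. RefSeq promoter windows on mouse assembly GRCm38.p6, which run from 250 bases before to 50 after a start site, were found for 41 of 56 members. Each start site has its own window, so a gene can have several, and these can overlap. The core was present in 5 of 11 synthetase promoters (45.5%), in 1 of 42 initiation factor promoters (2.38%) and in 3.97% of all 32851 promoters. The 5 synthetase genes are given in transcript direction, with the core in capitals as it reads on that strand, since they hold this shared feature and include Yars and Iars, which stand among the lowest with LPS. The core of Aars lies 112 bases before the start site, that of Gars 30 and that of Tars 15, while those of Iars and Yars begin 7 and 3 bases after it. Aars has another match, 9 bases after its start site. The stretches are chr8:111033690-111033777 (plus strand), chr6:55037931-55038000 (plus), chr15:11399659-11399713 (minus), chr13:49682126-49682155 (plus) and chr4:129189895-129189924 (plus).
Aars: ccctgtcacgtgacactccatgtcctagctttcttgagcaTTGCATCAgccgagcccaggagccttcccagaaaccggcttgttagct
Gars: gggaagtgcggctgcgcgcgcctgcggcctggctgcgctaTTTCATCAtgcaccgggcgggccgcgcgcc
Tars: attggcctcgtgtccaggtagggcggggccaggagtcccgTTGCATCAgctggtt
Iars: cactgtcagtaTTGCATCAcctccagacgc
Yars: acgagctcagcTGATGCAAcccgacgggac

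The LPS over MEDIA differences of these 5 genes were -0.64 for Aars, -0.48 for Gars, -0.47 for Tars, -1.86 for Iars and -2.19 for Yars. Synthetase promoters without the core belonged to Farsb (-2.21), Qars (-0.83), Sars (-0.35), Farsa (at or beyond -0.29), Eprs (-0.14) and Kars (0.07). Low values with LPS thus occurred on both sides of this division.

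A second motif, the E-box CACGTG bound by Myc and related factors, was found in 4 of 11 synthetase promoters (36.4%), in 10 of 42 promoters of initiation factors (23.8%) and in 7.15% of all promoters. Its letters read the same on both strands and do not overlap the first motif in the stretches shown. The factor count holds several windows of Eif5a. The same E-box of that gene is counted in overlapping windows, 74 and 185 bases before their start sites. Farsb and Iars are printed with the E-box in capitals because they were among the 3 synthetases lowest with LPS. Aars (-0.64) and Tars (-0.47) hold the E-box too, and Yars (-2.19) does not. In Farsb it lies 39 bases before the start site, within chr1:78488898-78488976 on the minus strand, and in Iars 69 bases before it, within chr13:49682021-49682106 on the plus strand. A core of the interferon-stimulated response element, GAAANNGAA, was found in 1 of 11 synthetase promoters (9.09%) and 2 of 42 factor promoters (4.76%), against 8.56% of all. A match is a string of letters and not a measured binding site.
Farsb: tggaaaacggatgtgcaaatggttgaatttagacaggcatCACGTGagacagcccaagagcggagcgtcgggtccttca
Iars: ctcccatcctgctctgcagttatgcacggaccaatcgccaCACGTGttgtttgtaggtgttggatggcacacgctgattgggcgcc

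All 4 arrays had been scaled to a 2% trimmed mean of 150.1 before deposit, so a change in total mRNA per cell cannot be seen. The 3' to 5' signal ratio of Gapdh, a measure of RNA integrity, was 3.12 with SEA/LPS, 2.42 with LPS, 2.69 with SEA and 2.21 in MEDIA, while that of Actb was 1.26, 1.24, 1.37 and 1.2 in the same order. The hybridisation control spikes were brighter than in MEDIA by 0.31 log2 with SEA/LPS, 0.55 with LPS and 0.09 with SEA. Dendritic cell markers were above the floor on all 4 arrays for 8 of 9 genes, with Itgax, which encodes CD11c, at 2093 with SEA/LPS, 1851 with LPS, 2181 with SEA and 2732 in MEDIA. Their summed signal was 18135 with SEA/LPS, 24273 with LPS, 19402 with SEA and 18387 in MEDIA. H2-Ab1 and Cd74 were the brightest of these markers and weigh most in that sum. H2-Ab1 read 8109 with LPS and 5558 in MEDIA, and Cd74 11233 and 8639. Itgax, Batf3, Flt3, Cd209a and Zbtb46 were lower with LPS than in MEDIA, Batf3 reading 248 with LPS and 486 in MEDIA. The markers of maturation were higher with LPS, Cd83 reading 1045 with SEA/LPS, 1496 with LPS, 517 with SEA and 475.5 in MEDIA. Markers shared with macrophages were also present (4 of 4, led by Csf1r), and those of neutrophils summed to 323, 285, 244 and 193 in the same order, with S100a8 the brightest. Of 3 T cell markers, Cd3e and Cd3g lay below the floor on every array, while Cd8a read 37.6 with SEA/LPS and 61.7 with LPS and was below the floor with SEA and in MEDIA. In a bulk sample fewer cells of a type and less RNA per cell cannot be told apart, and the part of RNA quality, spikes or other cells in the results was not tested.

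LPS over MEDIA asks how the translation genes stand in cells that have met a bacterial product. Synthetases past 2-fold were a minority and were all lower, from 2.06-fold (Vars) to at least 4.62-fold (Farsb). Of 18 synthetases 5 were at least 2-fold lower (27.8%) and 0 higher, where 8.43% of all measured genes were lower and 6.06% higher. Of 38 initiation factors 3 were lower (7.89%) and 1 higher (2.63%), so the share past 2-fold was close to the background. The medians of both classes were nevertheless alike, -0.48 for synthetases and -0.49 for initiation factors, beside -0.06 for all genes. In each class most members lay below 0, 13 of 18 synthetases and 27 of 38 factors, as did 53.3% of all genes. The synthetases were spread more widely, with an SD over genes of 0.83 against 0.57 for the factors and 0.79 for all genes. They were also dimmer, with a median of mean signals of 172.5 against 555 for the factors. The part of signal level in the spread and in the 2-fold counts was not tested. Scaling to the hybridisation controls put the median over all genes at -0.56 and turned the counts of lower members into 10 synthetases and 20 factors, with 25.5% of all genes lower there. Scaling to the 75th percentile left 3 synthetases, with 6.14% of all genes lower.

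**Figure D1:**
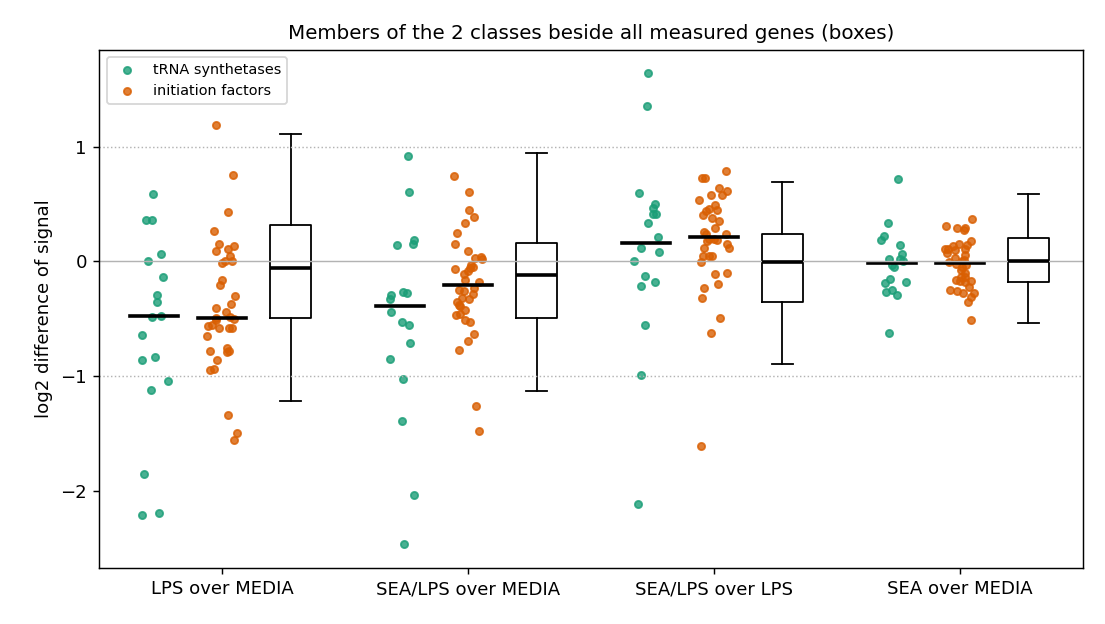
Log2 difference of signal (vertical axis) of each synthetase (green) and initiation factor (orange) in 4 comparisons, each of 1 array with 1 array. Thick lines are class medians, boxes show the quartiles of all 9473 measured genes with whiskers at percentiles 5 and 95, and dotted lines mark 2-fold; LPS over MEDIA has class medians of -0.48 and -0.49 against -0.06 for all genes, and SEA over MEDIA has 0 members past 2-fold.

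The synthetases lowest with LPS relative to MEDIA charge phenylalanine, tyrosine and isoleucine. Farsb encodes the beta subunit of the phenylalanyl enzyme and read 85.4 with SEA/LPS, 30.3 with LPS, 156 with SEA and 154 in MEDIA. It was at the floor with LPS, at least 4.62-fold lower than in MEDIA, while SEA and MEDIA were nearly level. Its 2 other probe sets above the floor read -2.02 and at or beyond -1.37 log2. Farsa, the alpha subunit of the same enzyme, was above the floor in MEDIA alone, at 40.8, so no more than a bound of at least 1.23-fold lower with LPS can be given.

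Yars, the tyrosyl enzyme, read 121 with SEA/LPS, 38.8 with LPS, 157 with SEA and 177 in MEDIA. LPS was the single low array, 4.57-fold below MEDIA and not far above the floor. Iars, the isoleucyl enzyme of the multi-synthetase complex, read 112 with SEA/LPS, 81.2 with LPS, 244 with SEA and 294 in MEDIA. Both arrays with LPS were below both without it, by 3.62-fold for LPS over MEDIA, and a second probe set gave -1.42 log2.

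Nars, the asparaginyl enzyme, read 308 with SEA/LPS, 232 with LPS, 493 with SEA and 504 in MEDIA, and was 2.17-fold lower with LPS. Its second probe set read -1.45 log2. Vars, the valyl enzyme, read 70.3 with SEA/LPS, 139.8 with LPS, 289.7 with SEA and 288 in MEDIA, so that it was 2.06-fold lower with LPS and lower still with SEA/LPS. Nars and Vars were just inside the 2-fold threshold and lay just outside it (-0.98 and -0.90) when arrays were scaled to the 75th percentile, as did Vars (-0.93) under quantile normalization. For the 3 called genes with another probe set above the floor (Farsb, Iars and Nars), the mean of the others was also at least 2-fold lower. Yars and Vars have 1 probe set each.

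**Figure D2:**
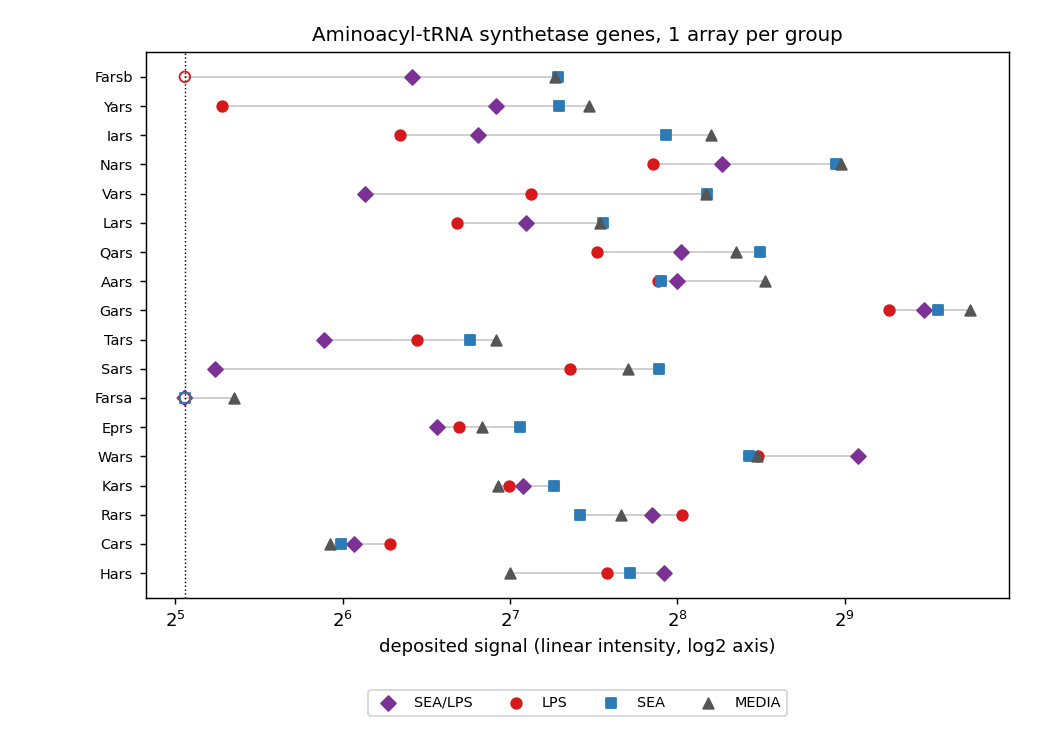
Deposited signal (horizontal log2 axis) of the 18 synthetase genes, ordered by LPS over MEDIA, with 1 marker per array. Open markers at the dotted line are values at the floor of 33.3; the Farsb, Yars and Iars markers for LPS lie far left of those for MEDIA, while SEA stays near MEDIA for most genes.

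The other synthetases differed by less. The enzymes of the multi-synthetase complex had 1 of 6 lower by 2-fold or more (8.43% of all genes), Iars, with a median of -0.49 against -0.48 for the 12 free enzymes. Lars, the leucyl enzyme, read 137 with SEA/LPS, 103 with LPS, 188 with SEA and 186 in MEDIA, and Qars, the glutaminyl enzyme, 259.9, 183, 361 and 327 in that order. Their LPS over MEDIA differences were -0.86 and -0.83, the nearest values outside the threshold. Other probe sets of Qars, marked for cross-hybridisation, read -0.48 and -0.11. Aars (alanyl) stood at -0.64 on a probe set marked for cross-hybridisation and at -0.04 on its other, which read 190.4 with LPS and 195 in MEDIA. Gars (glycyl, also the mitochondrial enzyme) stood at -0.48, Tars (threonyl) at -0.47, Sars (seryl) at -0.35 and Eprs (the fused glutamyl and prolyl enzyme) at -0.14. Another probe set of Eprs read -0.69 and a dim one stood at or beyond -0.68.

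Above 0 were Hars (histidyl, 0.58), Cars (cysteinyl, 0.36), Rars (arginyl, 0.36), Kars (lysyl, 0.07) and Wars (0.01). For Hars the direction rests on the probe set: a dimmer one read -0.21. Wars encodes the tryptophanyl enzyme, known as inducible by interferon gamma. The probe set used read 542 with SEA/LPS, 357.5 with LPS, 345 with SEA and 356 in MEDIA, while the other 3 gave 0.54, 0.45 and, with MEDIA at the floor, at or beyond 0.06 for LPS over MEDIA.

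Among initiation factors the members past 2-fold belonged to eIF2B, to the cap-loading factors and their inhibitor, and to ribosome maturation. Eif4ebp1, which encodes the eIF4E inhibitor 4E-BP1, read 345.5 with SEA/LPS, 282 with LPS, 823 with SEA and 827 in MEDIA. Both arrays with LPS were low, with LPS 2.94-fold below MEDIA. Of its other probe sets the bright one read -1.94 log2 and a dim one, at 63.8 with LPS and 47.5 in MEDIA, read 0.43. Eif4ebp2, a second inhibitor of the family, read 479.9 with SEA/LPS, 278 with LPS, 579.9 with SEA and 536 in MEDIA, at -0.95 for LPS over MEDIA, and its 3 other probe sets above the floor gave -1.53, -0.63 and a bound of -0.63.

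Eif4b encodes a cofactor that stimulates the helicase eIF4A. It read 402 with SEA/LPS, 257.5 with LPS, 685 with SEA and 651 in MEDIA, 2.53-fold lower with LPS than in MEDIA, and other probe sets gave -1.43 and -0.63 log2. The helicase genes Eif4a1 (-0.58) and Eif4a2 (-0.75) and the cofactor gene Eif4h (-0.55) were lower by less than 2-fold. Eif4e, the cap-binding protein itself, stood at 0.01, with 387 with SEA/LPS, 327 with LPS, 229 with SEA and 326 in MEDIA. Its lowest array was thus SEA on this probe set, LPS on another (78.0) and MEDIA on the remaining one (53.0).

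Eif2b1, the alpha subunit of eIF2B, read 110.4 with SEA/LPS, 66.7 with LPS, 185 with SEA and 188.5 in MEDIA, and was 2.83-fold lower with LPS. The other subunits were spread from -0.86 for Eif2b4 through -0.51 for Eif2b2 to 0.13 for Eif2b5, the catalytic subunit. The eIF2 genes Eif2s2 (-0.16), Eif2s3x (-0.37) and its Y-linked copy Eif2s3y (-0.56) were within 2-fold. Other probe sets of Eif2s2 gave -0.99, -0.68, -0.29, -0.17 and, with LPS at the floor, at or beyond -0.05. Those of Eif2s3x gave -0.60 and 0.21.

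Eif6 was the only member of either class at least 2-fold higher with LPS than in MEDIA. It encodes a factor that keeps the large ribosomal subunit from joining the small one too early. It read 583 with SEA/LPS, 1779 with LPS, 809 with SEA and 780.0 in MEDIA. The LPS array stood alone, 2.28-fold above MEDIA and 3.05-fold above SEA/LPS, on the gene's 1 probe set. Under scaling to the hybridisation controls its LPS over MEDIA difference was 0.64, short of 2-fold.

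For the eIF3 complex, which bridges the small subunit and the mRNA, differences were under 2-fold for all 11 subunit genes measured. With LPS 10 of 11 were below 0, as were 53.3% of all genes, and their median was -0.58. Eif3m (-0.94), Eif3d (-0.79), Eif3c (-0.78) and Eif3l (-0.78) were lowest, and Eif3f (0.27) was the exception. The lowest of these, Eif3m, read 209 with SEA/LPS, 137 with LPS, 219 with SEA and 262 in MEDIA. Eif3f read 4334 with SEA/LPS, 3988 with LPS, 4107 with SEA and 3316 in MEDIA, so MEDIA was its lowest array. The probe set used for Eif3c is marked for cross-hybridisation, and other probe sets of Eif3c gave -0.58, -0.37 and 0.22. With the mean of all probe sets in place of the brightest, 10 of 11 were again below 0 and the median was -0.44.

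Remaining factors had no shared direction. Eif1a (0.11) and Eif1ax (0.09), which encode the scanning factor eIF1A, were near their MEDIA level, and Eif1b was at -0.65. Eif5, the activator of GTP hydrolysis by eIF2, stood at 0.43, though its 3 other probe sets gave 0.04, -0.10 and -0.23. Eif5b, which helps join the ribosomal subunits, was at -0.50 and Eif5a at -0.41. Eif4enif1, which carries eIF4E into the nucleus, read 257 with SEA/LPS, 257 with LPS, 198 with SEA and 153 in MEDIA and had a difference of 0.75, the highest after Eif6. Eif4g2 (0.16), Eif4e3 (0.05), Eif2d (0.01), Eif4g3 (-0.01) and Eif4e2 (-0.20) lay closer to 0 on the probe sets used. Other probe sets of Eif2d gave 0.65 and, with LPS at the floor, at or beyond -1.04, and that of Eif4e3 gave 0.51.

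**Figure D3:**
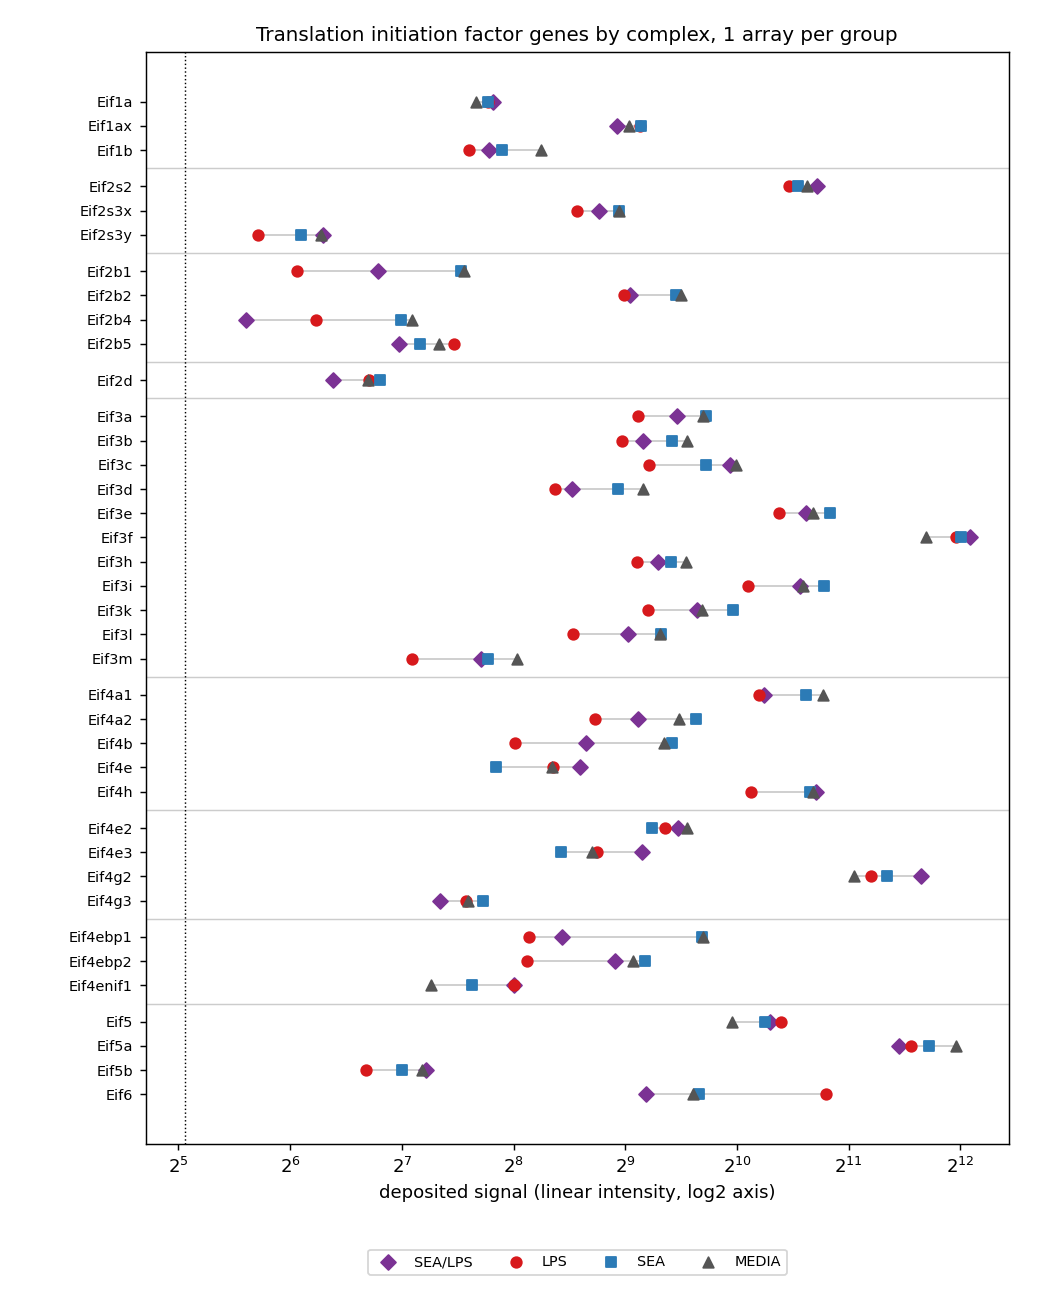
Deposited signal (horizontal log2 axis) of the 38 initiation factor genes, 1 marker per array, in blocks by complex from eIF1 at the top to eIF5 and eIF6 at the bottom; the dotted line is the floor of 33.3. LPS is left of MEDIA for 10 of 11 eIF3 subunits, and Eif6 is the gene whose LPS marker stands far right of the rest.

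Other probe sets gave a check within the same arrays, though they share the RNA and the hybridisation. Above the floor there were 14 for 9 synthetases and 48 for 23 initiation factors. For LPS over MEDIA 13 of the 14 and 36 of the 48 had the sign of the probe set used.

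**Figure D4:**
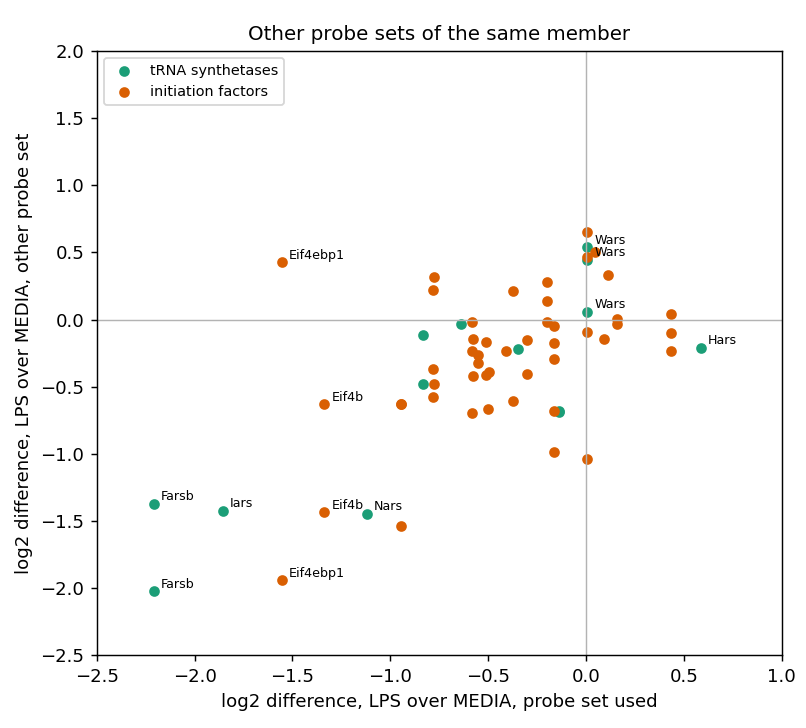
LPS over MEDIA log2 difference of other probe sets above the floor (vertical axis) against that of the probe set used for the same gene (horizontal axis), synthetases in green and initiation factors in orange. Farsb, Iars, Nars and Eif4b lie below 0 on both axes with each of their probe sets, while Eif4ebp1 has 1 probe set at -1.94 and 1 at 0.43.

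SEA/LPS over MEDIA had Vars and Iars among its low synthetases, as LPS over MEDIA did, beside Sars and Tars. At least 2-fold lower were 4 of 18 synthetases (22.2%) and 2 of 38 initiation factors (5.26%), with 0 higher in either class, where 7.05% of all genes were lower and 4.54% higher. Class medians were -0.39 for synthetases and -0.20 for factors, beside -0.12 for all genes. Vars and Iars were lower with both LPS and SEA/LPS, 4.10-fold and 2.63-fold below MEDIA with SEA/LPS. Farsb, Yars and Nars passed 2-fold with LPS only, standing at -0.85, -0.55 and -0.71 with SEA/LPS, although 2 other probe sets of Farsb read -1.76 and at or beyond -1.37 there. Sars and Tars passed with SEA/LPS only. Both comparisons share the MEDIA array, and whether a gene differed between them was not tested. The share of all genes in each of these overlaps is not given, so the split is not a result about these genes.

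Sars, the seryl enzyme, read 37.8 with SEA/LPS, 164 with LPS, 238 with SEA and 209 in MEDIA. SEA/LPS was the single low array, 5.53-fold below MEDIA, close to the floor. The other probe set of Sars, which is marked as able to cross-hybridise, read 83.4, 78.5, 117 and 91.6 in the same order, a SEA/LPS over MEDIA difference of -0.14 log2. Tars, the threonyl enzyme, read 59.2 with SEA/LPS, 87.0 with LPS, 108.5 with SEA and 121 in MEDIA, 2.04-fold lower with SEA/LPS, which became -0.79 under quantile normalization. The used probe set of Aars gave -0.52 for SEA/LPS over MEDIA, and its other, not marked for cross-hybridisation, gave -1.54, at 67.1 with SEA/LPS and 195 in MEDIA.

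Of the factors, Eif2b4, the delta subunit of eIF2B, read 48.8 with SEA/LPS, 75 with LPS, 127 with SEA and 136 in MEDIA, so both arrays with LPS were low and SEA/LPS was 2.79-fold below MEDIA. Eif4ebp1 was 2.39-fold lower and its bright second probe set read -2.19 log2. The genes of eIF4F and its cofactors stood between -0.70 (Eif4b) and 0.25 (Eif4e). The eIF3 median was -0.23, beside -0.12 for all genes, with 10 of 11 genes below 0, as were 58.8% of all genes. That eIF3 count was 6 of 11 when arrays were scaled to the 75th percentile.

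SEA/LPS over LPS asks what SEA adds in cells that also meet LPS. Initiation factors were more often above their LPS signal than below it, by small amounts, and synthetases were divided. The class medians were 0.16 for synthetases and 0.22 for initiation factors, beside -0.01 for all genes, and 11 of 18 synthetases and 29 of 38 factors were above 0, as were 42.7% of all genes. The synthetase median was 0.09 with the mean of probe sets and 0 without cross-hybridising probe sets. At least 2-fold higher were 2 synthetases (11.1%) and 0 factors, where 1.39% of all genes were higher. At least 2-fold lower were 1 synthetase (5.56%) and 1 factor (2.63%), where 3.47% of all genes were lower.

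Yars, at the signals given above, was 3.12-fold higher with SEA/LPS than with LPS, and Farsb at least 2.56-fold higher. Both were the genes lowest with LPS, and with SEA/LPS they stood between the LPS and MEDIA arrays. The Farsb value was not shared by its other probe sets, which gave 0.26 and, with both arrays at the floor, 0. Sars was 4.34-fold lower on the probe set used and at 0.09 log2 on the other. Eif6 was 3.05-fold lower, its signal with SEA/LPS being below that in MEDIA. Vars, at -0.99, was just short of 2-fold, and the second probe set of Aars read -1.50.

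All 11 eIF3 genes were above 0 in SEA/LPS over LPS, between 0.12 (Eif3f) and 0.73 (Eif3c), with a median of 0.35. Over all genes 42.7% were above 0. Other probe sets did not all follow: those of Eif3c, whose probe set used is marked for cross-hybridisation, gave 0.32, 0.10 and -0.57, those of Eif3a above the floor on both arrays gave 0.29 and -0.46, and 2 dim ones of Eif3l gave -0.06 and -0.32, each with SEA/LPS at the floor. All 5 measured genes of eIF4F and its cofactors were likewise above 0 (0.05 to 0.64, led by Eif4b), as were the 3 eIF2 genes (0.20 to 0.58). Other probe sets gave -0.29 and 0.09 for Eif4a1 and -0.33 and 0.72 for Eif4e. For Eif2s3x they gave 0.41 and, with SEA/LPS at the floor, at or beyond -0.36. Those of Eif4b and Eif4h were above 0. Within eIF2B the subunits divided, Eif2b1 at 0.73 and Eif2b2 at 0.05 against Eif2b5 at -0.49 and Eif2b4 at -0.62. Of the inhibitors, Eif4ebp2 stood at 0.79, Eif4ebp1 at 0.29 on a probe set marked for cross-hybridisation and Eif4enif1 at 0.00. Other probe sets of Eif4ebp1 went the other way, a bright one at -0.25 and a dim one, with SEA/LPS at the floor, at or beyond -0.94. Those of Eif4ebp2 gave 0.14, -0.34 and, with LPS and SEA/LPS at the floor, 0. The single LPS array enters this comparison and that of LPS with MEDIA, so a low reading on it moves both.

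SEA over MEDIA gave small differences throughout. In both classes 0 members were past 2-fold in either direction, where 0.644% of all genes were higher and 0.633% lower, so 0 is near what those shares would give for lists this short. Both medians were -0.01, beside 0.00 for all genes. Within 1.5-fold lay 16 of 18 synthetases and 38 of 38 factors. The exceptions were Hars, which read 210.1 with SEA and 128 in MEDIA (0.72) but -0.36 on its other probe set, and Aars, which read 239 with SEA and 367.5 in MEDIA (-0.62), with -0.52 on its other. Eif4e (-0.51) was the factor farthest from 0, and its other probe sets gave -0.04 and 0.14.

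The layout also allows SEA/LPS over LPS to be set against SEA over MEDIA, by subtracting the second log2 difference. The median of this difference of differences was 0.33 for synthetases and 0.29 for initiation factors, beside -0.06 for all genes. Without cross-hybridising probe sets the synthetase median turned to -0.0576, again beside -0.06 for all genes. The value was highest for Yars (1.82) and Farsb (1.34, with LPS at the floor), followed by Eif3c. For Farsb and Eif3c it rests on probe sets marked for cross-hybridisation. It was lowest for Sars (-2.30) and Eif6 (-1.66), followed by Vars. Since it takes in all 4 single arrays, an error in any of them enters it.

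Genes that work beside the members were taken from 7 lists of the pathway. Each was read on its brightest probe set alone, and other probe sets of these genes are not given. Aimp2, a scaffold of the multi-synthetase complex, read 136 with SEA/LPS, 85.8 with LPS, 233 with SEA and 277.5 in MEDIA, a difference of -1.69 for LPS over MEDIA and -1.03 for SEA/LPS over MEDIA. The scaffold list had 1 of 3 genes lower in each of these comparisons, where 8.43% and 7.05% of all genes were lower. In SEA/LPS over LPS 3 of 3 were above 0 (median 0.59), as were 42.7% of all genes. Mitochondrial synthetases had 0 of 8 past 2-fold with LPS (median -0.31), where 8.43% of all genes were lower and 6.06% higher. Hars2 was the 1 of 8 lower with SEA/LPS (7.05% of all genes), at the floor there and at least 2.98-fold below MEDIA. Elongation factors had 0 of 6 past 2-fold with LPS or with SEA/LPS relative to MEDIA. The shares over all genes were 8.43% lower and 6.06% higher with LPS, and 7.05% lower and 4.54% higher with SEA/LPS. For lists this short 0 is near what such shares would give. Eef2k, the kinase that slows elongation, was at -1.02 in SEA/LPS over LPS, with 43.7 with SEA/LPS and 88.6 with LPS.

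Termination and recycling genes were split with LPS, 2 of the 5 measured lower and 1 higher, where 8.43% of all genes were lower and 6.06% higher. Etf1, the release factor that reads stop codons, was at -1.40 and Abce1, which separates the ribosomal subunits, at -1.38, while Denr, which acts in recycling and reinitiation, was at 1.14. Of the kinases and phosphatase regulators of eIF2alpha, Eif2ak3, the kinase PERK of the endoplasmic reticulum, was at -1.33 with LPS. Ppp1r15a, which encodes the stress-inducible phosphatase subunit GADD34, read 107 with SEA/LPS, 379 with LPS, 167 with SEA and 209 in MEDIA, and in SEA/LPS over LPS it was 3.53-fold lower. Its constitutive relative Ppp1r15b read 648, 574, 274 and 322 in that order and was at 1.01 for SEA/LPS over MEDIA.

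The list of mTOR and MNK regulators had 4 of 11 genes lower with LPS and 2 of 11 with SEA/LPS relative to MEDIA, where 8.43% and 7.05% of all genes were lower. Mknk2, a kinase of eIF4E, read 257 with SEA/LPS, 220.0 with LPS, 903 with SEA and 769 in MEDIA, and Mknk1, its relative, 169.8, 105, 343 and 314. Both were low on both arrays with LPS (Mknk2 -1.81 with LPS and -1.58 with SEA/LPS, Mknk1 -1.58 and -0.89). Mlst8, a subunit of the mTOR complexes, was at the floor with LPS and at least 2.96-fold lower than in MEDIA. Ddit4, an inhibitor of mTOR, read 49.0 with SEA/LPS, 50.5 with LPS, 85.8 with SEA and 243 in MEDIA. It was the one list gene past 2-fold with SEA alone (-1.50), where 0.644% of all genes were higher and 0.633% lower. Among poly(A)-binding and related cofactors 1 of 7 was lower with LPS (8.43% of all genes), Paip2b (-1.13), and 1 of 7 higher with SEA/LPS than in MEDIA (4.54% of all genes), Larp1 (1.19), a regulator of mRNAs for the translation machinery.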

How the data were processed

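The authors deposited 1 table of 22690 Affymetrix probe sets by 4 arrays. The deposited values are 1-colour intensities on a linear scale, as their range and shared trimmed mean show. Software and background step: not given in the sources used here. Probe sets took their symbols from the platform annotation (20380 probe sets with 1 symbol, 691 with several, 1555 with none, 64 array controls). All 56 members matched the RefSeq gene table.

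Intensities under the 40th percentile of the pooled columns (33.3) were raised to it before taking log2. The probe set with the highest mean stood for a gene, and differences against an array at the floor are bounds. Any member could be named, and pathway genes were named if at least 2-fold different in a comparison. The members and lists were chosen with earlier results of these data known. The counting was checked on simulated data. Alternatives covered 3 scalings, 2 floors and 2 choices of probe set. Promoter windows came from RefSeq (GRCm38.p6). Python 3.11.15, numpy 2.4.6 and pandas 2.3.3 were used. The number of arrays limits the precision, and p-values could not be had.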

Additional observations from a re-analysis of the deposited data

Results flagged for a closer look

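For 3 members the SEA difference had opposite signs with and without LPS and reached 2-fold in 1 of these comparisons, as it did for 2.6% of all measured genes; the difference between the comparisons was not tested, since each rests on 2 single arrays. Sars stood at -2.12 in SEA/LPS over LPS and 0.19 in SEA over MEDIA, although its other probe set gave 0.09 in the first of these. Eif6 stood at -1.61 in SEA/LPS over LPS and 0.05 in SEA over MEDIA. Yars stood at 1.64 in SEA/LPS over LPS and -0.18 in SEA over MEDIA. The SEA over MEDIA values lie near 0, so the opposite sign carries little weight. Eif6 and Yars have 1 probe set each.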

How the results depend on the processing

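Of 133 values of single called members under the 7 alternatives, 48 equalled the reported value, many because a gene has 1 probe set or lies above every floor. Of the 85 that differed, 73 were still at least 2-fold in the same direction and 12 were not. For LPS over MEDIA, scaling to the hybridisation controls gave 10 synthetases and 20 initiation factors lower, where 25.5% of all genes were lower. It gave 0 factors higher, where 2.98% of all genes were higher. Scaling to the 75th percentile gave 3 synthetases lower (6.14% of all genes). For SEA/LPS over MEDIA, scaling to the 75th percentile and quantile normalization each gave 1 synthetase higher (Hars), where 6.37% and 5.39% of all genes were higher. The other probe set of Hars read -0.70 in that comparison as deposited. Lower factors numbered 4 of 38 under the hybridisation controls (15.3% of all genes) and 1 of 38 with the floor at the 60th percentile (5.54%). For SEA/LPS over LPS, higher synthetases numbered 0 with the floor at the 60th percentile, where 0.837% of all genes were higher. They numbered 1 both with the mean of probe sets (1.03% of all genes) and without cross-hybridising probe sets (1.41%). The last setting gave 2 synthetases lower (Aars and Sars), where 3.7% of all genes were lower. The hybridisation controls gave 1 factor higher, where 3.14% of all genes were higher. Without cross-hybridising probe sets the synthetase median of the SEA difference with LPS minus that without turned to -0.0576. For LPS over MEDIA the class medians minus that of all genes ranged from -0.53 to -0.36 for synthetases and from -0.51 to -0.32 for factors over all settings. Of all genes called in that comparison, 41.8% were higher as deposited, 55.4% scaled to the 75th percentile and 10.5% scaled to the hybridisation controls. Shares for SEA/LPS over MEDIA were 39.2%, 58.6% and 16.5%, and for SEA/LPS over LPS 28.6%, 39.5% and 69.1%, in the same order. Quantile normalization gave 52.0% for SEA/LPS over MEDIA and 43.3% for SEA/LPS over LPS. No paired analysis was possible because each group has 1 sample and no test was made. Signals near the floor (Farsa, Farsb and Yars with LPS, Sars with SEA/LPS) limit the size of their differences.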
